A study of Mus musculus with 12 samples.

Results

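The genes described here encode the proteins of the mitochondrial ribosome. They were taken as every symbol in the deposited count files that begins with Mrpl or Mrps followed by a digit, which gave 76 of the 23420 symbols, 47 with a large-subunit symbol (Mrpl) and 29 with a small-subunit symbol (Mrps). Bulk RNA-seq counts were given for 12 libraries of wild-type mouse colonic epithelium, with 3 libraries for crypts and 3 for each of 3 ages of confluent monolayer, day 3, day 4 and day 5. Per the labels, crypts came from a WT mouse aged 6 to 10 weeks, were first expanded as monolayers on collagen, and those cells were then replated on scaffolds cross-linked in a gradient, from which whole monolayers were lysed; isolated crypts served as the comparison, and no group carried an allele or a drug. Day 3 monolayers carry a label of 526 ± 56 ohm cm2 for their electrical resistance, day 4 monolayers 623 ± 15 and day 5 monolayers 407 ± 53, the kind of error unnamed. The labels do not tell separate mice or cultures from repeat libraries, and the p-values below therefore measure only spread among these samples, which may be technical.

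The mitochondrial ribosome translates the few proteins encoded by mitochondrial DNA, which are core subunits of the respiratory chain and ATP synthase. Its own RNAs come from mitochondrial DNA, whereas all of its proteins are encoded in the nucleus, made in the cytosol and imported. Some of these proteins have a counterpart in the bacterial ribosome, and others were added in the mitochondrial lineage. In the colon, where differentiated cells rely heavily on oxidation of butyrate, the supply of respiratory chain subunits depends on this ribosome.

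All 76 genes passed the filter on low counts. Gene counts per library were 4518314 to 14290393, and the 76 genes held 8974 to 31093 of them. Levels are given as CPM (counts scaled to library size, here with TMM factors), and changes as log2 fold changes ± SE from 1 edgeR fit of all 12 libraries; a gene was called at a Benjamini-Hochberg adjusted p under 0.05 over all 12863 genes tested. Crypts and monolayers lay far apart, with 71.6% of the variance of log2 CPM on a first component that separated them, and day 5 replicate 1 stood apart from the other libraries on the second component. Epithelial markers (8 of 8 detected) summed to 9255 to 10560 CPM in crypts and 10947 to 14759 CPM in monolayers. The 8 leukocyte markers summed to 19.4 to 64.0 CPM in crypts and 0 to 1.21 CPM in monolayers, where Cd3g and Cd52 had no count at any day. The 8 fibroblast and smooth muscle markers summed to 13.97 to 88.1 CPM in crypts, with Acta2 at 0, and to 0.798 to 5.04 CPM in monolayers, with Dcn at 0 at every day. The 4 endothelium markers summed to 3.34 to 5.48 CPM in crypts and 0.538 to 4.02 CPM in monolayers. The nuclear RNA Malat1 took 2.02 to 2.34% of gene counts in crypts and 5.65 to 12.2% in monolayers. The part of these differences in the results below was not tested, and in bulk samples fewer cells of a type and less RNA per cell cannot be told apart.

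The first comparison asked how the levels of these genes in monolayers differed from those in freshly isolated crypts. Most genes of the mitochondrial ribosome lay modestly lower in monolayers, a few fell by more than 1 on the log2 scale, and 4 rose. Of the 76 genes, 34 were lower in monolayers, which is 44.7% against a background of 32.8% of all genes tested, and 4 were higher, which is 5.26% against a background of 30.7%. The median change was -0.33, against -0.03 over all genes tested, and 58 of the 76 changes were below 0 (76.3% against 51.4%). For 17 of the 76 genes all 9 monolayer libraries lay below all 3 crypt libraries, and for 2 genes, Mrpl45 and Mrps21, they lay above. The background shares for such separation are 23.2% and 22.7%. Separation downwards was thus about as common as over all genes and is not a result about these genes, while separation upwards was rarer. With library totals in place of TMM 44 were lower (57.9% against 39.7% under that scaling) and 2 were higher (2.63% against 24.1%). Of the 34 calls lower, 18 held when each library was left out in turn, and the count was smallest, at 23, without crypts replicate 3.

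**Figure D1:**
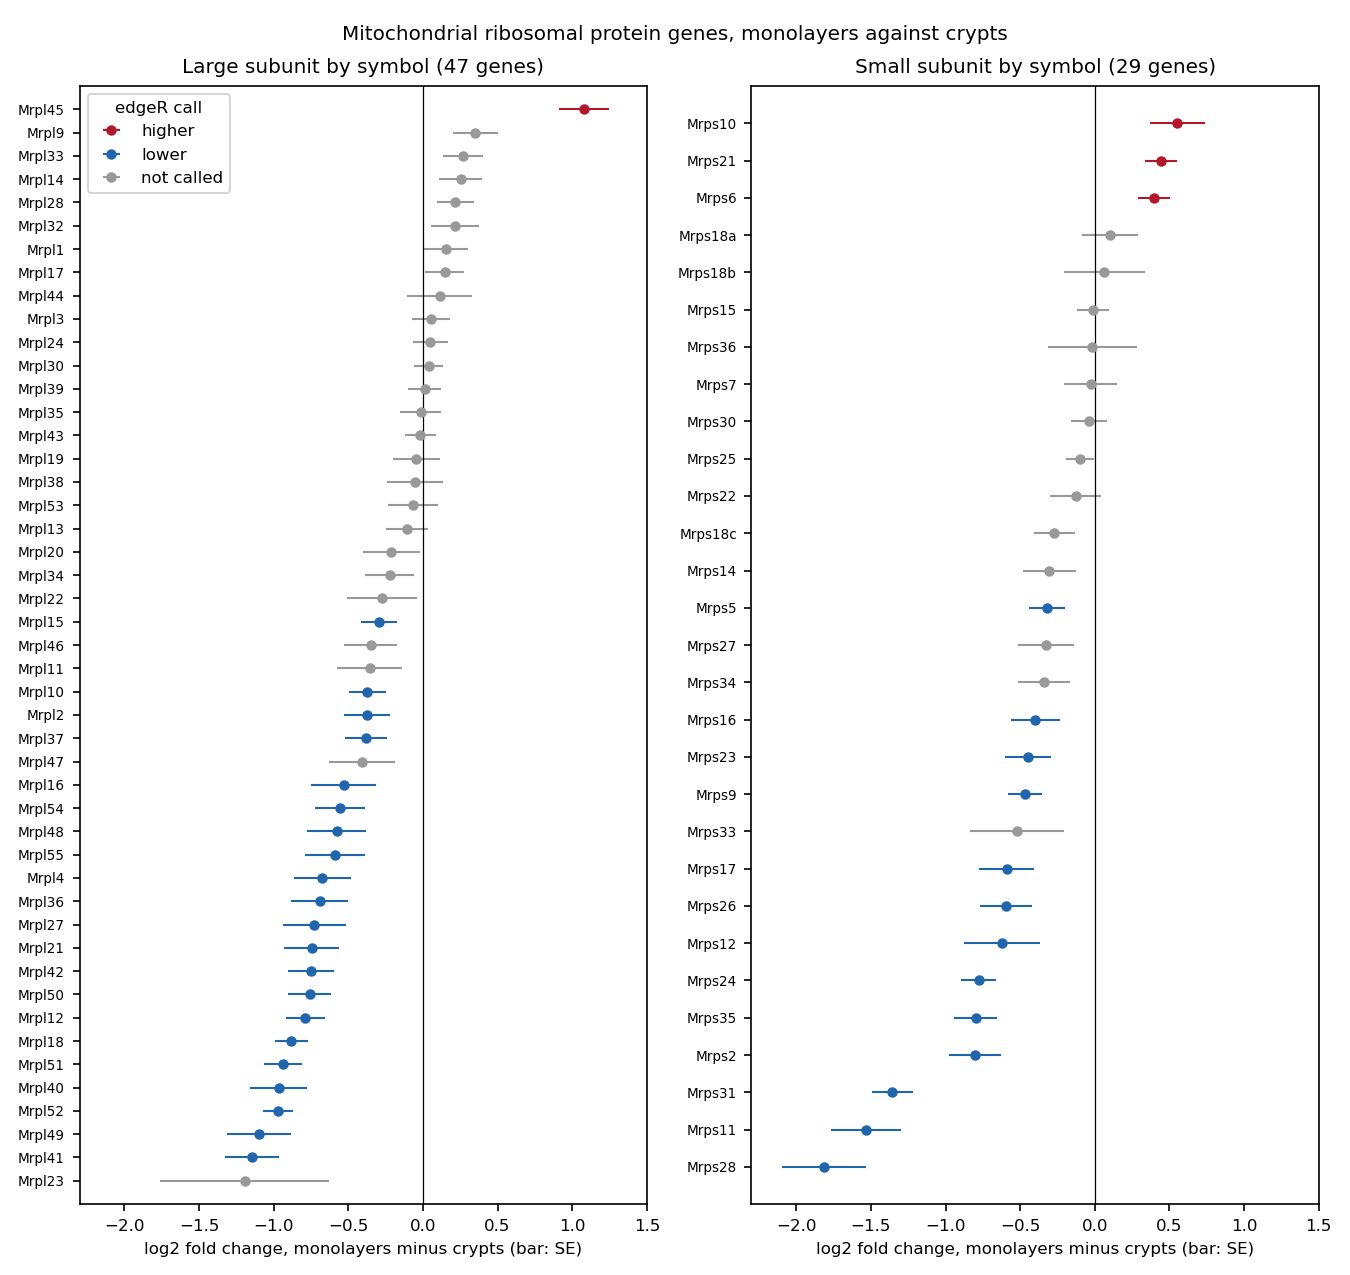
Log2 fold change of each gene in 9 monolayer against 3 crypt libraries, ± SE from edgeR, with large-subunit symbols on the left and small-subunit symbols on the right, ordered by change. Red points are called higher, blue points lower and grey points not called; most points lie left of 0, and the points farthest right and left are Mrpl45 and Mrps28.

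The total for the large subunit was 1470, 1544 and 1556 CPM in crypts replicates 1 to 3. At day 3 it was 1283, 1369 and 1230 CPM, at day 4 it was 1296, 1316 and 1344 CPM, and at day 5 it was 1143, 1094 and 1118 CPM. Every monolayer library thus lay below every crypt library, and every day 5 library lay below those of day 3 and day 4, which overlapped. The total for the small subunit was 896, 934 and 1016 CPM in crypts, 764 to 859 CPM at day 3, 834 to 850 CPM at day 4 and 665 to 712 CPM at day 5. The order of the groups was therefore the same for the small subunit, again with day 3 and day 4 overlapping and day 5 lowest.

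Between large and small subunit, the change differed by less than the spread between replicates. Of the large-subunit symbols 21 of 47 were lower (44.7%) and 1 was higher (2.13%), with a median change of -0.35. Of the small-subunit symbols 13 of 29 were lower (44.8%) and 3 were higher (10.3%), with a median of -0.33. The backgrounds are 32.8% lower and 30.7% higher. Summed large-subunit over summed small-subunit CPM was 1.64, 1.65 and 1.53 in the crypts and 1.55 to 1.72 in the 9 monolayer libraries, so the groups overlapped. The mean log2 ratio in monolayers minus that in crypts was -0.015, less than the SD between replicates of 0.051. Symbols do not always name the subunit in which a protein sits: Mrps30 (mL65) and Mrps18a (mL66) are large-subunit proteins as assembled, and Mrps36 is known as a component of the oxoglutarate dehydrogenase complex. With proteins placed as assembled the medians were -0.29 for 49 large-subunit and -0.37 for 26 small-subunit genes.

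**Figure D2:**
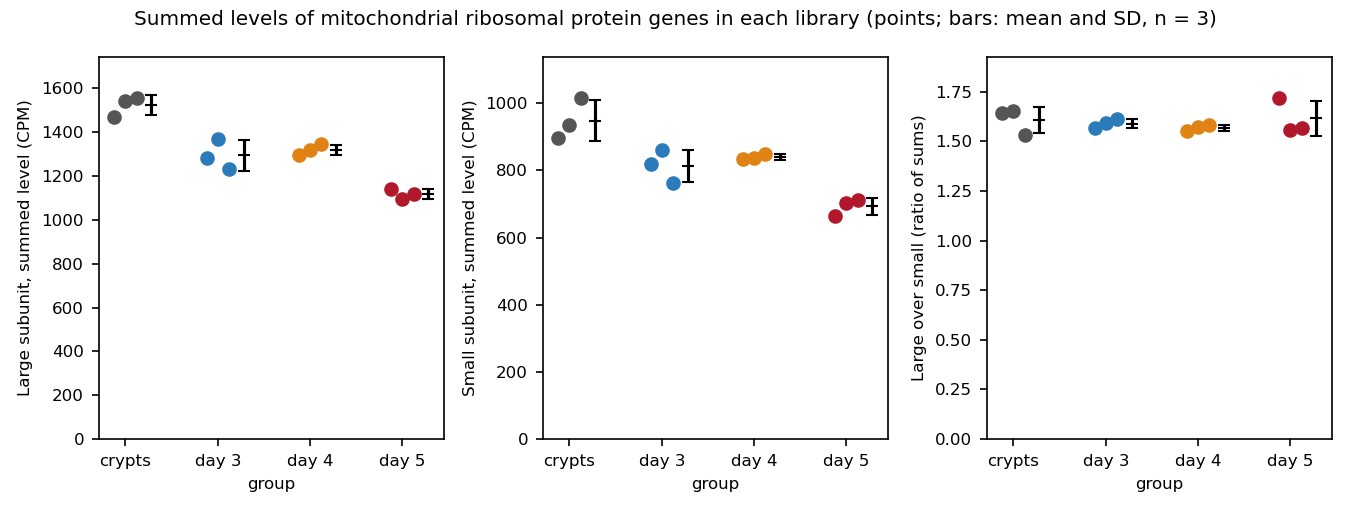
Summed CPM of large-subunit symbols (left), of small-subunit symbols (middle) and their ratio (right) in each of 12 libraries, with mean and SD of each group (n = 3). Both sums are highest in crypts and lowest at day 5, while the ratio lies between 1.53 and 1.72 in every library and overlaps between groups.

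Split by origin, the 4 classes had medians between -0.25 and -0.39. The backgrounds over all genes tested are 32.8% lower and 30.7% higher. Of 30 large-subunit proteins with a bacterial counterpart 11 were lower (36.7%, near the background, median -0.25). Of 19 large-subunit proteins without one 10 were lower (52.6%) and 1 was higher (5.26%, median -0.38). Of 16 small-subunit proteins with a bacterial counterpart 9 were lower (56.2%) and 3 were higher (18.8%, median -0.36). Of 10 without one 4 were lower (40%, median -0.39). No gene was called higher among these 30 and 10 genes with edgeR or with DESeq2, and at an unadjusted p under 0.05 there were 1 and 0. The differences between these classes were not tested.

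Per length of the principal transcript, levels spread widely within the ribosome. The longest principal transcript was used, from 418 bases for Mrpl52 to 7300 for Mrpl17. The levels and ranks below therefore depend on these annotated lengths. Mrpl52, a large-subunit protein of the mitochondrial lineage, had the highest level of the 76 genes in crypts and in monolayers, at 254 and 134 CPM per kb. Mrps21, the counterpart of bacterial bS21, was among the 3 highest in crypts, at 83.8 CPM per kb, and next to Mrpl52 in monolayers, at 114 CPM per kb. Mrpl45 moved from rank 60 to rank 28, from 8.79 to 19.1 CPM per kb. Lowest in both was Mrpl23, the counterpart of uL23 beside the exit tunnel, with 1.83 to 2.79 CPM in crypts and 0 to 2.49 CPM in monolayers. It was named after its values were seen, and 1 pseudogene copy matches it at 90% identity or more over at least 50% of its length, which makes its count uncertain.

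Among the large-subunit genes, Mrpl45 alone was called higher over all monolayers. Its protein, mL45, sits beside the exit tunnel and anchors the ribosome to the inner membrane. The level was 15.2, 24.6 and 24.3 CPM in crypts, 62.0, 47.3 and 48.5 CPM at day 3, 51.3, 45.3 and 55.2 CPM at day 4, and 27.8, 35.5 and 45.0 CPM at day 5. All 9 monolayer libraries were above all crypts, with day 5 replicate 1 the closest to them. The change was 1.08 ± 0.17 (adjusted p = 1.87e-05) for all monolayers, 1.28 ± 0.19 at day 3, 1.22 ± 0.19 at day 4 and 0.74 ± 0.20 at day 5. Day 5 against day 3 was -0.54 ± 0.19 (adjusted p = 0.0521), which missed the threshold.

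The Mrpl45 promoter is shown because it holds 3 matches to the binding sequence of NRF1, a nuclear factor known to act on many genes for mitochondrial proteins, in the one large-subunit gene that rose over all monolayers. Sequence and start are from RefSeq (GRCm38.p6, chr11:97315466-97315765, plus strand), read 5′ to 3′ from 250 bases before the start to 50 bases after it, with matches in capitals. The palindrome-like NRF1 core, with 1 free base, was searched on both strands; its matches begin at -120 and -38 on the forward and at 15 on the reverse strand, counted with the start as 0.
Mrpl45: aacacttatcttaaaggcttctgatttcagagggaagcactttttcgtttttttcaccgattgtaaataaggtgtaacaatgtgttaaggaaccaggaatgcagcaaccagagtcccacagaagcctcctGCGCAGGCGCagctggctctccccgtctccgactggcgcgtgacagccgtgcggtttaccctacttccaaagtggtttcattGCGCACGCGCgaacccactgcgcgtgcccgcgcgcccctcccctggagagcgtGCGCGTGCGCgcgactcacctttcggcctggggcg

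The stalk and its base recruit translation factors to the large subunit. Mrpl12, the counterpart of the stalk protein bL12 and known also to bind mitochondrial RNA polymerase, was at 77.4, 88.7 and 119 CPM in crypts and at 42.7 to 66.7 CPM in monolayers (median 52.0). No monolayer library reached the crypts. The change was -0.79 ± 0.13 (adjusted p = 3.96e-05). Mrpl10, the stalk's anchor uL10, was at 30.6, 40.7 and 38.6 CPM in crypts and 25.7 to 31.6 CPM in monolayers (median 27.8), which overlapped crypts replicate 1. Its change of -0.37 ± 0.13 (adjusted p = 0.0149) was called, but not without crypts replicate 2 (-0.29) or 3. Mrpl11 (uL11), at the stalk base, was at 10.4, 25.03 and 27.9 CPM in crypts and 12.3 to 18.8 CPM in monolayers, with a change of -0.36 ± 0.22 (adjusted p = 0.165) that was called only when crypts replicate 1 was left out.

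The large-subunit genes that met the naming rule for the largest decreases all encode proteins without a bacterial counterpart. That rule asks for a call, a mean of at least 5 CPM and no overlap with crypts. Without the rule, the largest large-subunit decrease, -1.19, was that of a gene with a bacterial counterpart. Mrpl41 was at 23.2, 21.8 and 27.0 CPM in crypts and at 8.28 to 15.1 CPM in monolayers (median 11.02), with no overlap and a change of -1.14 ± 0.18 (adjusted p = 2.02e-05). Mrpl49 was at 25.01, 17.6 and 25.2 CPM in crypts and 5.64 to 13.4 CPM in monolayers (median 11.5), a change of -1.10 ± 0.22 (adjusted p = 0.000214). Mrpl40 was at 31.2, 33.8 and 26.9 CPM in crypts and 7.45 to 18.7 CPM in monolayers (median 17.5), a change of -0.97 ± 0.19 (adjusted p = 0.000195). In Mrpl49 and Mrpl40, too, all 9 monolayer libraries were below all crypts, with day 5 replicate 1 lowest in both.

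Mrpl52 and Mrpl51, both of the mitochondrial lineage, were lower in monolayers by similar amounts but ordered the days in opposite ways. Mrpl52 was at 114, 99.9 and 104 CPM in crypts, 70.4, 70.0 and 65.2 CPM at day 3, 62.3, 60.5 and 61.1 CPM at day 4 and 36.1, 31.2 and 46.6 CPM at day 5. Its groups followed each other downwards with no overlap. The change from crypts was -0.97 ± 0.10 (adjusted p = 8.1e-08), day 5 against day 4 was -0.70 ± 0.13 (adjusted p = 0.00211) and day 5 against day 3 was -0.86 ± 0.13 (adjusted p = 9.3e-05). Mrpl51 was at 40.2, 55.8 and 43.5 CPM in crypts, 19.96, 19.6 and 20.5 CPM at day 3, 23.9, 27.3 and 20.4 CPM at day 4 and 30.2, 31.7 and 27.4 CPM at day 5. Here day 3 was lowest and day 5 highest among the monolayers, all of them below the crypts. The change from crypts was -0.94 ± 0.13 (adjusted p = 3.33e-06), and day 5 was above day 3 by 0.57 ± 0.17 (adjusted p = 0.0189), a call that was lost without day 3 replicate 1, 2 or 3 or day 5 replicate 2 (change 0.52 to 0.59 across these).

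Levels of Mrpl52 fell at each later day, though its difference between day 4 and day 3 was not called. Its promoter is shown for this, and as that of the gene with the highest level per length. It holds 2 matches to the ETS core CCGGAAG, bound by GABP among other factors, both on the reverse strand (CTTCCGG in capitals) and beginning at -47 and 2. The window is chr14:54426659-54426958 on the plus strand (RefSeq, GRCm38.p6).
Mrpl52: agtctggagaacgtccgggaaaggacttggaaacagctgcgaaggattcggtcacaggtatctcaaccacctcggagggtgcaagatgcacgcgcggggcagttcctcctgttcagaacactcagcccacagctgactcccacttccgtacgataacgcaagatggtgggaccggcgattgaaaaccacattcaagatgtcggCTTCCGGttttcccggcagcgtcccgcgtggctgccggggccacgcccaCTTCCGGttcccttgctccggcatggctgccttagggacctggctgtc

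Other large-subunit proteins did not pass the test. Mrpl3 (uL3), close to the peptidyl transferase centre, was at 27.9 to 34.5 CPM in crypts and 25.2 to 42.7 CPM in monolayers, with a change of 0.05 ± 0.13 (adjusted p = 0.73). Mrpl44, which carries a ribonuclease III fold, was at 7.60 to 16.8 CPM in crypts and 11.4 to 16.8 CPM in monolayers, with a change of 0.11 ± 0.22 (adjusted p = 0.677). Mrps30 (mL65) changed by -0.04 ± 0.12 (adjusted p = 0.813) and Mrps18a (mL66) by 0.10 ± 0.19 (adjusted p = 0.654). The signs of Mrpl3, Mrpl44 and Mrps18a flipped with library totals in place of TMM, and those of all 4 flipped when a single crypt library was left out.

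In the small subunit, Mrps28 had the largest decrease of the 76 genes that was called. Its protein is the counterpart of bacterial bS1. The level was 20.2, 17.1 and 17.9 CPM in crypts, 9.08, 7.10 and 8.48 CPM at day 3, 6.20, 6.91 and 4.48 CPM at day 4, and 0.604, 3.405 and 4.50 CPM at day 5. Every monolayer library was below the crypts, and the value of day 5 replicate 1 rests on 3 counts. The change was -1.81 ± 0.28 (adjusted p = 1.82e-05), and day 5 against day 3 was -1.48 ± 0.40 (adjusted p = 0.0137).

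Mrps31, a small-subunit protein of the mitochondrial lineage, was at 40.4, 52.3 and 50.8 CPM in crypts, 14.7, 20.9 and 17.0 CPM at day 3, 24.2, 22.3 and 19.7 CPM at day 4 and 14.3, 17.9 and 18.2 CPM at day 5. The monolayers lay far below the crypts and the 3 days lay close together. The change was -1.36 ± 0.14 (adjusted p = 7.37e-08), and day 5 against day 3 was -0.05 ± 0.18 (adjusted p = 0.874).

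Mrps11 (uS11), on the platform of the small subunit, was at 28.02, 19.2 and 14.8 CPM in crypts and at 4.12 to 11.4 CPM in monolayers (median 7.02). No monolayer library reached the lowest crypt library. The change was -1.53 ± 0.23 (adjusted p = 1.35e-05). The gene lies head to head with Mrpl46, a large-subunit gene of the same ribosome, so that both start from 1 intergenic stretch. Mrpl46 was at 19.6, 26.3 and 20.3 CPM in crypts and 11.4 to 22.7 CPM in monolayers, which overlapped, with a change of -0.35 ± 0.18 (adjusted p = 0.0974); Mrpl46 was chosen for this position after its values were seen. The difference between both changes was not tested. The Mrps11 window, chr7:78782881-78783180 on the plus strand, overlaps the Mrpl46 window, chr7:78783040-78783339 on the minus strand (RefSeq, GRCm38.p6). It is shown for this overlap. The capitals mark a reverse-strand match to the YY1 motif AAGATGGCG beginning at -108. It lies outside the Mrpl46 window, but only just past its end on the side after the Mrpl46 start. Whether the match bears on either gene was not tested.
Mrps11: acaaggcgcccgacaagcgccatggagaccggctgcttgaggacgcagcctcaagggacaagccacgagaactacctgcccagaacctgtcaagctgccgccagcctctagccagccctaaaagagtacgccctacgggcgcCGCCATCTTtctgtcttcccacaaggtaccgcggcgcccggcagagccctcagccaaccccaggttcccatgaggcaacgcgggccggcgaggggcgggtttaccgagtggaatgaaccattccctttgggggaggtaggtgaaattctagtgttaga

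The calls higher in the small subunit were Mrps21, Mrps10 and Mrps6. Mrps21 was at 44.8, 39.2 and 38.6 CPM in crypts, 51.8, 55.9 and 45.0 CPM at day 3, 62.4, 55.7 and 58.7 CPM at day 4 and 59.2, 51.5 and 59.7 CPM at day 5. With TMM every monolayer library lay above the crypts, with day 3 replicate 3 closest to crypts replicate 1. The TMM factors of these libraries were 0.976 and 1.106, so with library totals in place of TMM the groups overlap. The change was 0.44 ± 0.11 (adjusted p = 0.00132). In the reference annotation, 3 pseudogene copies of Mrps21 and 1 of Mrps10 match the gene at 90% identity or more over at least 50% of its length, so reads from these copies and from the gene could have been confused or set aside.

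With TMM, Mrps21 is the other gene above the crypts in all 9 monolayer libraries. Its promoter, chr3:95871465-95871764 on the minus strand (RefSeq, GRCm38.p6), is shown beside that of Mrpl45 for this. It holds 1 NRF1 match beginning at -91 and 1 ETS match beginning at 18, both on the reverse strand and in capitals.
Mrps21: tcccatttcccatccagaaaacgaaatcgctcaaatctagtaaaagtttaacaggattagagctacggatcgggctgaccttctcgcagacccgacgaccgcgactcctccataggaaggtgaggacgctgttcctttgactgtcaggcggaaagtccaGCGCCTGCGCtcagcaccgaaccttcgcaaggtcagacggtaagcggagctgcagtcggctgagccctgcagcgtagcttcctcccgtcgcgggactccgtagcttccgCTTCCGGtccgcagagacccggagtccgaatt

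Mrps10 (uS10), in the small-subunit head, was at 25.4, 18.4 and 17.2 CPM in crypts and 15.7 to 37.4 CPM in monolayers (median 30.5). Day 5 replicate 1 lay below all crypts, and the other 8 monolayer libraries lay above them. The change was 0.55 ± 0.18 (adjusted p = 0.0133), and the call was lost without crypts replicate 2 (0.50) or crypts replicate 3 (0.45) and with library totals in place of TMM (0.37). Mrps10 was named after its values were seen, because so few genes were called higher.

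Mrps6, the counterpart of bacterial bS6, was at 44.8, 43.3 and 50.4 CPM in crypts, 72.9, 67.0 and 61.4 CPM at day 3, 71.0, 67.4 and 60.5 CPM at day 4 and 54.4, 44.3 and 54.6 CPM at day 5. Day 3 and day 4 lay above the crypts, and day 5 overlapped them. The change was 0.40 ± 0.11 (adjusted p = 0.00297), and with library totals in place of TMM it was 0.21 and not called. In the reference annotation Mrps6 shares exons on the same strand with Slc5a3, a sodium-coupled inositol transporter gene. Slc5a3 had 116 ± 7.80 CPM in crypts (SD, n = 3 for each group), and day 3, day 4 and day 5 monolayers had 166 ± 7.85, 179 ± 5.81 and 164 ± 13.9 CPM, a change of 0.55 ± 0.08 (adjusted p = 4.54e-06). How reads in the shared exons were assigned was not tested.

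For 2 further small-subunit genes the call hung on single libraries. Mrps12 (uS12), which helps set the accuracy of decoding, was at 22.6, 17.3 and 16.5 CPM in crypts and 8.87 to 25.4 CPM in monolayers (median 10.6). Day 5 replicate 1 held the highest of all 12 values, and the other 8 monolayer libraries lay below the crypts. The change of -0.62 ± 0.25 (adjusted p = 0.0413) was called only with all libraries, without day 4 replicate 2 or without day 5 replicate 1 (-0.82); each of the other 10 leave-outs ended the call.

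Mrps16 (bS16) was at 29.6, 22.9 and 31.6 CPM in crypts and 16.7 to 25.8 CPM in monolayers (median 20.1), which overlapped. Its change of -0.40 ± 0.16 (adjusted p = 0.0417) was called in all libraries and in the leave-outs of crypts replicate 2, day 3 replicate 2, day 4 replicate 2 and day 5 replicate 1, and was lost in the other 8. Mrps34 (mS34) changed by -0.34 ± 0.17 (adjusted p = 0.0921) and Mrps18c (bS18) by -0.27 ± 0.14 (adjusted p = 0.098). These passed the threshold without day 4 replicate 3 and without day 5 replicate 1, respectively, and both did with library totals. Mrps18b (mS40), a paralog of Mrps18c and Mrps18a, changed by 0.06 ± 0.27 (adjusted p = 0.85), and Mrps36 by -0.02 ± 0.30 (adjusted p = 0.966).

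**Figure D3:**
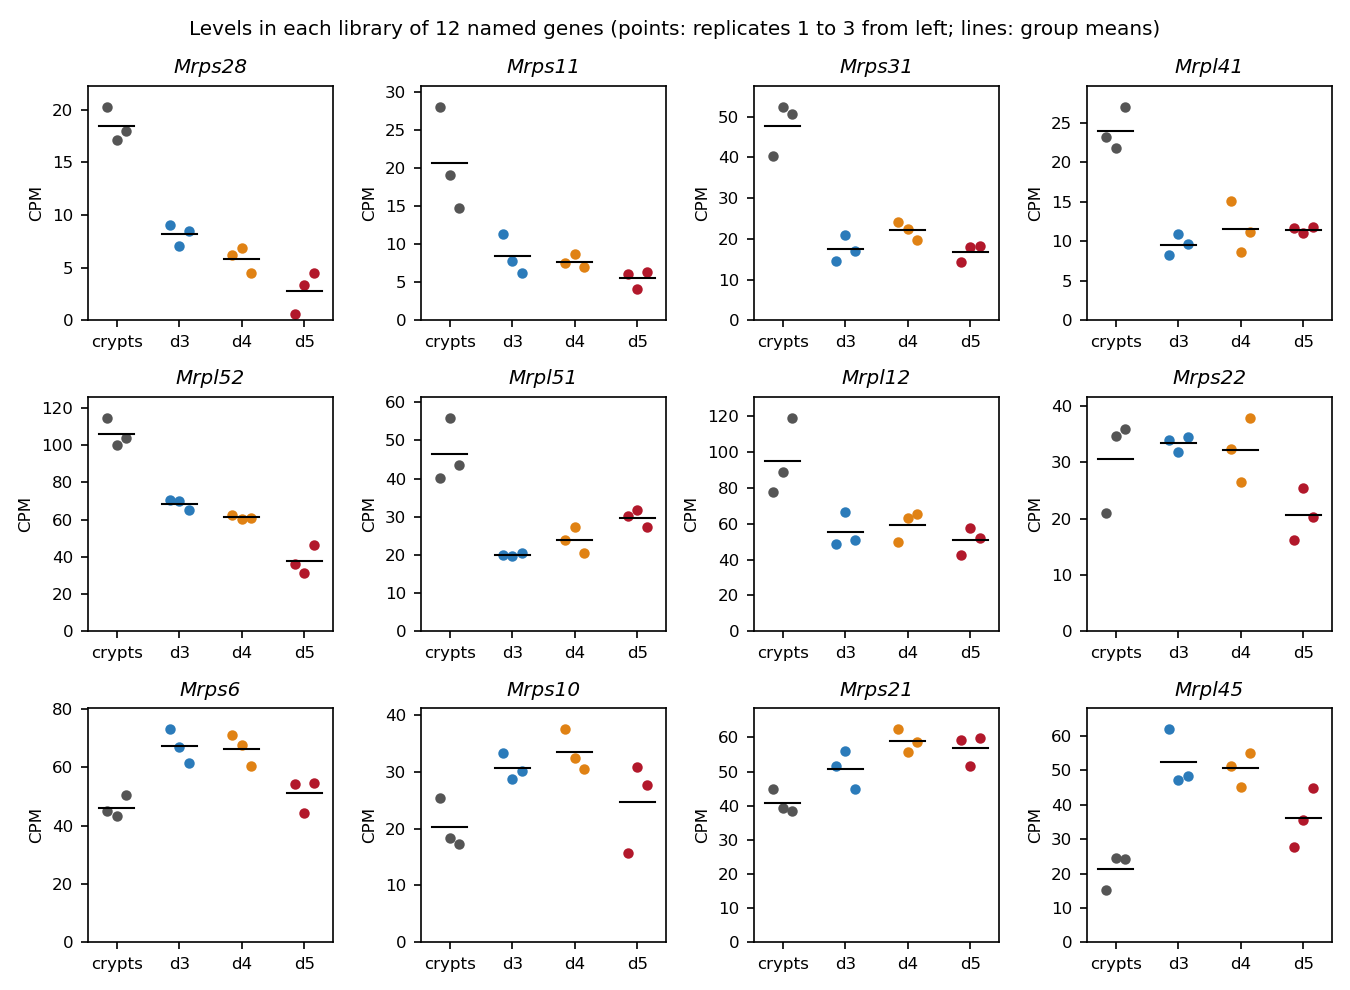
Level in CPM of 12 named genes in each library (3 replicates per group, lines at group means) for crypts and day 3, day 4 and day 5 monolayers. The upper rows hold genes lower in monolayers and Mrps22, and the lower row the 4 genes called higher, among which Mrpl45 and Mrps21 have all monolayers above the crypts.

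Each day was also compared with the same 3 crypt libraries, so these comparisons share their controls. At day 3, 20 genes were lower, or 26.3% against a background of 27.9%, and 4 were higher, or 5.26% against 28.4%. At day 4, 19 were lower, or 25% against 28.4%, and 8 were higher, or 10.5% against 28.7%. At day 5, 33 were lower, or 43.4% against 28.9%, and 2 were higher, or 2.63% against 28.4%. Thus the share lower was close to the background at day 3 and day 4, and the share higher was below it at all 3 days. With library totals in place of TMM, which moved the median over all genes from -0.03 to -0.206 for all monolayers, 33 were lower at day 3 and 33 at day 4, each 43.4%, against backgrounds of 34.2% and 34.3% under that scaling, so the lower share then lay above the background at these days too. Genes higher were then 2 at day 3 (2.63% against 22.7%) and 4 at day 4 (5.26% against 22.9%), and at day 5 there were 47 lower (61.8% against 35.9%) and 1 higher (1.32% against 21.8%). Leaving out crypts replicate 3 reduced the genes called higher at day 3 from 4 to 2.

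The 76 genes had a median change of -0.26 on both day 3 and day 4, and of -0.43 on day 5. Genes called higher at day 3 were Mrpl45, Mrps10, Mrps21 and Mrps6; at day 4 these were joined by Mrpl14, Mrpl30, Mrpl33 and Mrpl9, and at day 5 Mrpl45 and Mrps21 were called. At day 3 the call of Mrps10 was lost without crypts replicate 2 or 3 or day 3 replicate 1, and that of Mrps21 without crypts replicate 2 or 3 or day 3 replicate 1 or 2. At day 4 the call of Mrpl14 was lost without crypts replicate 2 or day 4 replicate 1, that of Mrpl30 without crypts replicate 3 or day 4 replicate 3, that of Mrpl33 without crypts replicate 3, and that of Mrpl9 in 8 of 12 leave-outs. Mrpl30 (uL30) was at 58.6, 55.9 and 52.7 CPM in crypts, 50.8 to 57.8 CPM at day 3, 69.4, 63.6 and 78.7 CPM at day 4 and 52.6, 45.9 and 46.2 CPM at day 5. Its day 4 libraries lay above all others. Mrpl33 (bL33) was at 39.0, 28.6 and 28.6 CPM in crypts, 35.5 to 48.7 CPM at day 3, 43.2 to 47.3 CPM at day 4 and 29.2 to 32.9 CPM at day 5, so day 4 lay above crypts and day 5 did not.

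The pairs of days asked whether the ribosome genes moved while the monolayers aged. Between day 3 and day 4 edgeR called 0 of 76 genes in either direction, against backgrounds of 1.59% higher and 1.17% lower; at an unadjusted p under 0.05 there were 2 higher (2.63% against 7.04%) and 0 lower (against 6.54%), and DESeq2 called 0, against 3.61% higher and 2.63% lower. From day 4 to day 5, 4 genes were lower, or 5.26% against a background of 4.2%, and 0 were higher against 3.36%. At an unadjusted p under 0.05 there were 18 lower (23.7% against 11.4%) and 0 higher (against 10.4%), and by DESeq2 8 lower (10.5% against 5.87%) and 0 higher (against 4.84%). Between day 3 and day 5, 9 were lower, or 11.8% against 10.5%, and 1 was higher, or 1.32% against 9.9%. At an unadjusted p under 0.05 the latter were 19 lower (25% against 16.5%) and 1 higher (against 15.7%), and by DESeq2 11 lower (14.5% against 11.9%) and 1 higher (against 11.2%). At the adjusted edgeR threshold the shares lower were near the background and are not a result about these genes, while by DESeq2 and at an unadjusted p the share from day 4 to day 5 lay above it. The median change was -0.22 for day 5 against day 4, with 66 of 76 values below 0 (86.8%). For day 5 against day 3 it was -0.22, with 60 below 0 (78.9%). Over all genes tested these medians were -0.005 and -0.012, with 50.6% and 50.9% of values below 0.

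Beside Mrpl52, the genes lower at day 5 than at day 4 were Mrpl30, Mrpl33 and Mrps9. Mrpl30 changed by -0.55 ± 0.12 (adjusted p = 0.00685), lost without day 4 replicate 3. Mrpl33 changed by -0.55 ± 0.16 (adjusted p = 0.0431) and kept its call only without crypts replicate 1, 2 or 3 or day 3 replicate 2, and lost it in the other 8 leave-outs. Mrps9 (uS9), named after its values were seen, was at 83.2, 71.6 and 91.8 CPM in crypts, 64.0 to 65.0 CPM at day 3, 65.6 to 70.9 CPM at day 4 and 35.9, 59.0 and 48.0 CPM at day 5. Its day 5 libraries lay below all others, and the change of -0.50 ± 0.15 (adjusted p = 0.0405) kept its call only without crypts replicate 1, 2 or 3 or day 5 replicate 2.

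Between day 3 and day 5 the largest decreases among the called genes were those of Mrps28, Mrpl52 and Mrps26. Mrps26 (mS26) was at 30.0, 32.6 and 38.6 CPM in crypts, 24.9, 33.2 and 22.7 CPM at day 3, 22.5 to 27.5 CPM at day 4 and 10.5, 21.2 and 18.0 CPM at day 5. Day 5 lay below the other groups, of which day 3 overlapped crypts and day 4. Its change of -0.68 ± 0.22 (adjusted p = 0.0387) was lost without day 3 replicate 1 or 2, day 4 replicate 3, or day 5 replicate 1 or 3. The count of genes lower from day 3 to day 5 fell from 9 to between 2 and 5 without day 3 replicate 1, 2 or 3, day 4 replicate 3 or day 5 replicate 3. The count lower from day 4 to day 5 fell from 4 to 1 or 2 without day 3 replicate 1 or 3, any day 4 replicate, or day 5 replicate 3.

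Other genes of mitochondrial translation were read from lists of related genes, whose shares stand against the same backgrounds of 32.8% lower and 30.7% higher. Among 8 genes listed as mitoribosomal proteins with other symbols 4 were lower (50%), with a median change of -0.36. Lactb is one of these 4, and it is not an established protein of the ribosome, so the count for ribosomal proteins proper is smaller. Mrp63 was at 21.4 ± 6.598 CPM in monolayers (SD, n = 9) and 32.2 ± 9.25 in crypts (n = 3). Its change of -0.63 ± 0.20 (adjusted p = 0.0108) lost its call without crypts replicate 2. Ptcd3, a pentatricopeptide protein of the small subunit, was at 24.6 ± 4.82 and 38.0 ± 6.74 CPM, a change of -0.65 ± 0.15 (adjusted p = 0.000703). None of the 8 was higher by edgeR or DESeq2, nor at an unadjusted p under 0.05 (0 genes). Of 21 mitochondrial tRNA synthetases and related enzymes 11 were lower (52.4%) and 1 was higher (4.76%), with a median of -0.56. Cars2, the cysteine enzyme, was at 3.32 ± 1.504 CPM in monolayers and 14.9 ± 2.70 in crypts, a change of -2.15 ± 0.40 (adjusted p = 0.000135). Qrsl1, a subunit of the glutamyl-tRNA amidotransferase, was at 6.41 ± 1.29 and 15.3 ± 4.13 CPM, a change of -1.26 ± 0.23 (adjusted p = 8.92e-05).

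Of 12 translation factors 7 were lower (58.3%) and 1 was higher (8.33%), with a median of -0.46. Tsfm, the exchange factor of the elongation factor Tufm, was at 8.51 ± 2.54 CPM in monolayers and 14.4 ± 1.88 in crypts, a change of -0.79 ± 0.21 (adjusted p = 0.00296). Oxa1l, which inserts new proteins into the inner membrane, was at 29.0 ± 5.47 and 47.5 ± 1.80 CPM, a change of -0.73 ± 0.12 (adjusted p = 3.52e-05). Tufm itself changed by -0.48 ± 0.15 (adjusted p = 0.00805), which was lost without crypts replicate 1. Of 27 genes of ribosome assembly and rRNA modification 7 were lower (25.9%, under the background) and 3 were higher (11.1%), with a median of -0.16. Malsu1, a factor that keeps immature large subunits from joining, was at 32.0 ± 7.03 CPM in monolayers and 16.7 ± 3.98 in crypts, a change of 0.91 ± 0.18 (adjusted p = 0.000254). Mterfd2, which directs rRNA methylation, rose by 1.01 ± 0.19 (adjusted p = 0.000176), and Fastkd2, an RNA-binding assembly factor, fell by 1.06 on the log2 scale, SE 0.26 (adjusted p = 0.00185).

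Of 24 genes for maintenance of mitochondrial DNA and RNA 10 were lower (41.7%) and 1 was higher (4.17%), with a median of -0.46. Tfam, which packages mitochondrial DNA, changed by -0.84 ± 0.14 (adjusted p = 5.33e-05), and Lrpprc, which stabilises mitochondrial mRNA, by -0.91 ± 0.09 (adjusted p = 4.52e-08). Polrmt, the mitochondrial RNA polymerase, changed by -0.83 ± 0.31 (adjusted p = 0.0266), lost without crypts replicate 1 or 2. Among 14 nuclear regulators 7 were lower (50%) and 5 were higher (35.7%). Ppargc1b, a coactivator of mitochondrial genes, was at 27.0 ± 8.501 CPM in monolayers and 115 ± 12.5 in crypts, a change of -2.13 ± 0.12 (adjusted p = 2.33e-11). Ppargc1a changed by -1.07 ± 0.11 (adjusted p = 1.6e-07), Pprc1 by -0.66 ± 0.14 (adjusted p = 0.000451) and Nrf1, which was lost without crypts replicate 1, by -0.34 ± 0.11 (adjusted p = 0.0108). Gabpa, an ETS factor, rose by 0.36 ± 0.10 (adjusted p = 0.00495), not called without crypts replicate 3 or with library totals. Myc had 25.3 ± 4.00 CPM in crypts (SD, n = 3 for each group), day 3, day 4 and day 5 monolayers had 253 ± 25.7, 165 ± 19.2 and 92.8 ± 15.3 CPM, and it rose by 2.65 ± 0.13 (adjusted p = 2.72e-12) over all monolayers.

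The respiratory chain and ATP synthase subunits encoded in the nucleus, most of which join the products of the mitochondrial ribosome, were mostly lower. Of 85 listed by symbol pattern, 80 were tested, 72 of these (90%, background 32.8%) were lower and 1 was higher, with a median of -0.81. The gene called higher, Ndufa4l2, counts as a subunit here by its symbol alone. By day the medians of the listed subunits were -0.87, -0.78 and -0.82, so their lowest median was that of day 3. Cox5b, a cytochrome oxidase subunit, was at 182 ± 15.9 CPM in crypts and 53.0 ± 4.38 in monolayers, a change of -1.78 ± 0.08 (adjusted p = 1.22e-12). Cytosolic ribosomal proteins, 82 tested of 85, had 26 genes higher over all monolayers (31.7%, near the background of 30.7%) and 6 lower (7.32% against 32.8%), with a median of 0.23. Against crypts their median was 0.46 on day 3, 0.38 on day 4 and -0.21 on day 5, and 55 were lower at day 5 than at day 3 (67.1% against a background of 10.5%). Many of these genes have near-identical pseudogenes, which makes their counts uncertain. None of these differences between groups of genes was tested.

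**Figure D4:**
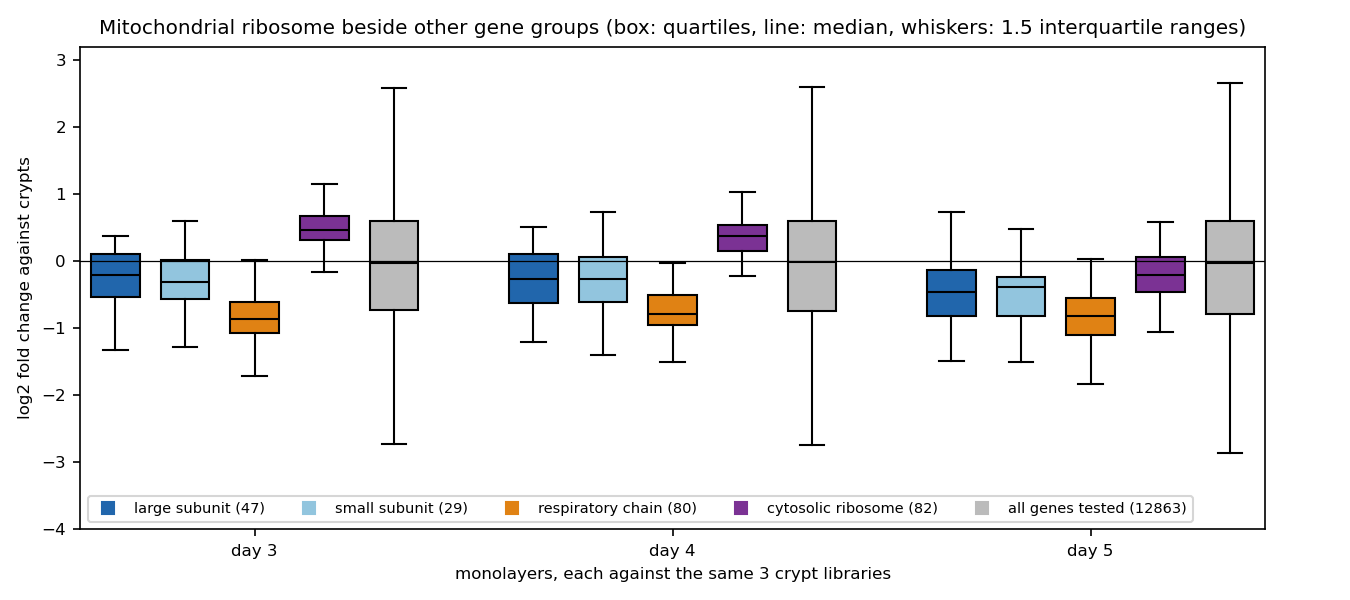
Log2 fold change from crypts at each day, as boxes (quartiles, median, whiskers to 1.5 interquartile ranges) over the genes of the large and small mitochondrial subunits, nuclear-encoded respiratory chain and ATP synthase subunits, cytosolic ribosomal proteins and all genes tested. The mitochondrial ribosome lies between 0 and the respiratory chain, and the cytosolic ribosome goes from above 0 at day 3 to below 0 at day 5.

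Genome position is a feature that the choice of genes did not use. In the mouse reference annotation 32 of the 76 genes, or 42.1%, start within 1000 bases of a protein-coding gene read in the opposite direction, against 16.3% of 11682 tested genes. Among these 32 genes 17 were lower and 0 were higher, with a median of -0.37. Among the 44 others 17 were lower and 4 were higher, with a median of -0.25. The backgrounds are 32.8% lower and 30.7% higher, and the share lower among the 44 lay nearer to the background. The difference between these groups was not tested. Among the genes tested, 26 such neighbours outside the 76 genes were found by symbol. Of these 8 were lower (30.8%, near the background of 32.8%) and 6 were higher (23.1% against 30.7%), with a median of -0.12. Neighbours counted under another symbol are missing, such as Twnk, which faces Mrpl43 and was tested as Peo1. Several neighbours belong to mitochondria themselves. Mrpl47 (-0.41) faces Ndufb5, a complex I subunit, which changed by -0.77 ± 0.10 (adjusted p = 3.22e-06). Mrpl36 (-0.69) faces Ndufs6, another, at -0.38 ± 0.13 (adjusted p = 0.0142), and Mrps12 faces Sars2, the mitochondrial seryl-tRNA synthetase, at -0.91 ± 0.33 (adjusted p = 0.0213). Other pairs had opposite signs: Mrpl18 (-0.88) faces Tcp1, a chaperonin subunit, at 0.51 ± 0.07 (adjusted p = 3.94e-06), and Mrpl48 (-0.58) faces Rab6a, a Golgi transport GTPase, at 0.84 ± 0.07 (adjusted p = 1.41e-08). These pairs were named after their values were seen. Exons of 25 of the 76 genes overlap another gene, 10 of them lower and 1 higher (median -0.27), and 7 have a pseudogene copy, 2 of them lower and 2 higher (median -0.27). These counts stand against the same backgrounds, and their difference from the other genes was not tested. For 21 genes the overlap is with exons on the opposite strand, which makes their counts uncertain where strand was not used. Among them are Mrpl9, Mrpl10, Mrpl12, Mrpl24, Mrpl49, Mrps18b, Mrps26 and Mrps30. Mrpl18, Mrpl36, Mrpl47 and Mrpl48 overlap the very neighbour named with them above, so the values within these pairs share that uncertainty. For 5 genes, Mrpl33, Mrpl51, Mrps18c and Mrps6 among them, the overlap is on the same strand.

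Promoter sequences were found for 67 of the 76 genes and for 10227 of the 12863 genes tested, each with 300 bases. Shares are of genes, and a gene was counted if any of its promoter windows held a match. Genes with several windows, such as Mrpl48 with 4, thus had more chances to match. The NRF1 core, on either strand, was found for 17.9% of the 67 genes and for 11.4% of the genes tested. The ETS core CCGGAAG was in 35.8% against 20%, the YY1 motif AAGATGGCG in 11.9% against 3.53%, and the E-box CACGTG, bound by Myc among others, in 7.46% against 11.8%. Over all 27025 genes with a promoter sequence the shares were 5.19%, 9.93%, 1.64% and 8.09% in the same order. Of the 12 genes with an NRF1 match 2 were higher and 3 were lower, with a median change of 0.13, and of the 55 without one 2 were higher and 26 were lower, with a median of -0.37. Of the 24 genes with an ETS match 10 were lower and 1 was higher (median -0.30). Of the 43 without one 19 were lower and 3 were higher (median -0.35). Of the 8 with a YY1 match 5 were lower (median -0.54), and of the 59 without one 24 were lower and 4 higher (median -0.31). Of the 5 with an E-box 3 were lower (median -0.38), and of the 62 without one 26 were lower and 4 higher (median -0.32). Over all genes tested 32.8% were lower and 30.7% higher. Differences between genes with and without a match were not tested. Mrpl45 and Mrps21, shown above, are 2 of the 12 with an NRF1 match, and Mrpl12, which fell, is another. A match describes letters in this window, and factor binding was not measured.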

How the data were processed

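RNA of 12 mouse colon libraries was analysed from the counts deposited by the authors, whole unnormalized numbers of reads per gene symbol. TopHat2, HTSeq and CASAVA 1.9 are the tools, and mm9 and mm10 the builds, per the submitters' processing notes, which do not say which build served what. The annotation, strand setting and remaining versions remain not given in the sources used here. Where strand was not used, a gene and an overlapping antisense partner cannot be told apart. Each file held 23420 symbols and 5 summary lines, which stayed out of library sizes and tests: reads in no gene were 38.7 to 49.0% of reads, not uniquely aligned 14.2 to 19.2% and ambiguous 0.154 to 0.207%. A floor of 3 counts corresponds to 0.21 to 0.664 CPM before TMM.

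Counts were tested with edgeR 4.0.16 in R 4.3.3 (filterByExpr with a minimum count of 10, TMM, glmQLFit and glmQLFTest, 1 coefficient per group, all 12 libraries). Monolayers are the mean of the 3 days. P-values were adjusted by Benjamini-Hochberg over 12863 genes. The SE was taken from the fold change and F. DESeq2 1.42.0 was an alternative. The fit was tested on simulated data. Replicates of a group differed beyond sampling noise (chi-square per degree of freedom 5.58 to 27.7).

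Named genes were those called with a mean of at least 5 CPM and no overlap between monolayers and crypts, up to 8 each way, the 3 largest each way for pairs of days, up to 3 per other list, and a set named whatever their value. All other genes named were chosen after their values were seen. Likeness to other genes over the 12 libraries is not given, since these fall into separate clusters. The members and lists were chosen with earlier results of these data known. Gene neighbours, transcript lengths and pseudogene copies (blastn 2.17.0) are from GENCODE M21, matched by symbol. Promoters are from RefSeq (GRCm38.p6), matched by symbol or synonym. Build and annotation may differ from those of the counts, so the only coordinates given are those of the RefSeq promoter windows.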

Additional observations from a re-analysis of the deposited data

Results flagged for a closer look

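For 3 genes the change from crypts pointed in opposite directions at day 3 and day 5, and the direct test of day 5 against day 3 passed the threshold; all 3 share the same crypt libraries. Mrps22 (mS22), a small-subunit protein, was at 21.01, 34.7 and 35.8 CPM in crypts, 33.8, 31.8 and 34.4 CPM at day 3, 26.5 to 37.8 CPM at day 4 and 16.1, 25.4 and 20.3 CPM at day 5. Day 5 lay below day 3 and day 4 and overlapped crypts replicate 1. Day 5 against day 3 was -0.67 ± 0.21 (edgeR adjusted p = 0.0283), lost without day 3 replicate 1, 2 or 3 or day 5 replicate 1 or 3.

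Mrpl24 (uL24) was at 73.0, 60.9 and 67.8 CPM in crypts, 70.5, 84.3 and 79.7 CPM at day 3 and 72.3, 48.1 and 48.7 CPM at day 5. Day 5 replicate 1 lay within the range of day 3, and the other day 5 libraries lay below crypts and day 3. Day 5 against day 3 was -0.48 ± 0.14 (adjusted p = 0.0207), lost without day 3 replicate 2 or 3 or day 5 replicate 2 or 3. Mrps30 (mL65) was at 37.2, 50.6 and 54.9 CPM in crypts, 50.6, 57.0 and 50.3 CPM at day 3 and 33.4, 39.3 and 43.1 CPM at day 5. All day 5 libraries lay below all day 3 libraries. The difference was -0.44 ± 0.15 (adjusted p = 0.0416), and it kept its call only without crypts replicate 1, 2 or 3 or day 5 replicate 3. For none of the 3 genes did the change at day 3 pass the threshold, and at day 5 that of Mrps22 did (-0.56 ± 0.21, adjusted p = 0.0307), though not without crypts replicate 2 or 3 or day 5 replicate 1 or 3.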

How the results depend on the processing

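No change that was called reversed, and of the genes not called some did for monolayers against crypts, at an adjusted p of 0.203 or more. With library totals Mrpl3 (-0.13), Mrpl44 (-0.066), Mrps18a (-0.075), Mrps18b (-0.12), Mrpl1 (-0.023), Mrpl17 (-0.0391), Mrpl24 (-0.14), Mrpl30 (-0.14) and Mrpl39 (-0.17) turned lower. Mrpl39 did so too with DESeq2 size factors (-0.023), upper quartile scaling (-0.0203) and DESeq2 (-0.024), and Mrps36 (0.029) and Mrps7 (0.0042) turned higher with the replicate block. Leaving out each library gave ranges across 0 for Mrpl44 (-0.12 to 0.37), Mrps18a (-0.0704 to 0.23), Mrps18b (-0.12 to 0.35), Mrpl39 (-0.024 to 0.045), Mrpl3 (-0.025 to 0.13), Mrps30 (-0.17 to 0.085), Mrpl24 (-0.015 to 0.11), Mrpl35 (-0.097 to 0.042), Mrpl38 (-0.14 to 0.045), Mrpl43 (-0.061 to 0.032), Mrps15 (-0.051 to 0.047), Mrps7 (-0.27 to 0.16), Mrps22 (-0.32 to 0.0054), Mrps36 (-0.21 to 0.51), Mrpl53 (-0.16 to 0.084) and Mrpl19 (-0.082 to 0.00078). With library totals in place of TMM the median of all genes moved from -0.0258 to -0.206 and that of the 76 genes to -0.5094, which is -0.303 relative to all genes against -0.307 with TMM; genes higher were then 2 for all monolayers, 2 at day 3, 4 at day 4 and 1 at day 5, and 33 were lower at day 3 and 33 at day 4. Genes lower from day 4 to day 5 were 8 with no filter, 8 with DESeq2 and 2 with the replicate block; 2 genes were higher at day 4 than day 3 when only those libraries were fitted. With subunits as assembled, large minus small median change was 0.07643 against -0.02558. The cause of these moves was not tested. Leaving out each library gave 2 to 5 genes higher at day 3, 1 to 6 lower from day 4 to day 5, and 0 to 1 higher and 2 to 10 lower from day 3 to day 5. Deviations of log2 CPM from the group mean of each gene correlated at -0.0336 to 0.0585 between same-numbered libraries of different groups. The numbers were therefore not taken to pair the libraries. In the fit with the replicate block the counts other than that above stayed within 1.5 times. Of 3826 values of single genes 3475 kept direction and side of the threshold, 282 lost the call, 21 gained it and 48 changed sign. Of the 34 genes lower in monolayers 18, and of the 4 higher 2 (Mrpl45 and Mrps21), kept their call in every alternative. Depth limits low genes most: Mrpl23 had no count in 1 library and Mrps28 had 3.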
